A study of Mus musculus with 6 samples.

Results

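Both morpholino treatments, but neither untreated library, gave reads at 484 of the 931675 clusters of RNA 3′ ends mapped in mouse embryonic stem cells. These 484 are called AMO-shared clusters here (AMO, antisense morpholino oligonucleotide). They were chosen by their reads: none in either untreated library and at least 5 in each of the 4 AMO libraries, after joining same-strand positions at most 24 nt apart. Their absence from untreated cells is therefore a description and carries no test.

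The cells were V6.5, an embryonic stem cell line of strain C57BL/6-129. There were 3 groups of 2 biological replicates, all of the same line: cells given an AMO against U1, cells given a scrambled AMO, and untreated cells with no AMO. Poly(A)-selected RNA was sequenced from its 3′ ends in all of them. One line was used, so the results describe that line, and its stem cell markers were not checked because no annotation of the build of the files, mm9, was used here. For the same reason no cluster was assigned to a gene, exon or intron, and no sequence around a cluster is shown.

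Most RNA polymerase II transcripts end by cleavage followed by addition of a poly(A) tail. The machinery recognises a hexamer a short way upstream of the cut, most often AATAAA and next most often ATTAAA when written as DNA. The U1 small nuclear ribonucleoprotein recognises 5′ splice sites and is also known to suppress cleavage at poly(A) signals inside transcribed regions, so that blocking it with an AMO exposes early sites. A scrambled AMO has the same chemistry without that target. Its comparison with the U1 AMO separates the sequence of the oligonucleotide from its delivery.

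Outside chromosome M, U1 AMO libraries held 15413148 and 57217428 reads, scrambled AMO libraries 26415700 and 61726804, and untreated libraries 38331615 and 60261221. Read names placed both AMO libraries of replicate 1 in 1 run and lane, and both of replicate 2 in another run on separate lanes. The untreated libraries were sequenced in 2 further runs, 1 each, so treatment and run cannot be told apart for the absence from untreated cells. By counting error alone, 0 reads would limit a cluster to 0.0783 and 0.0498 CPM (reads scaled to the library total) in untreated replicates 1 and 2. These are the levels of 3 counts. Both libraries also lacked some clusters with at least 10 reads in each of the 5 other libraries, 2.25% and 1.08% of them. Depth alone therefore does not bound a missing cluster. PCR duplicates could not be removed without molecular identifiers, so intervals and floors cover counting error only.

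The AMO-shared clusters were weak sites. The median cluster had 9 and 21 reads in the U1 AMO libraries, 9 and 12 in the scrambled AMO libraries, and none untreated. Scaled to library size, the medians were 0.584 and 0.367 CPM in the U1 AMO libraries, against 0.341 and 0.194 CPM in the scrambled AMO libraries. The smallest level that the read minimum admits was 0.324 and 0.0874 CPM in the U1 AMO libraries, against 0.189 and 0.0810 CPM in the scrambled AMO libraries, so each library was truncated at a different level. Set against the untreated floor of 3 counts over both libraries, 0.0304 CPM, the U1 AMO level was at least 4.52-fold to at least 2181-fold higher, with a median bound of 13.6-fold. The same bounds for the scrambled AMO ran from 3.73-fold to 64.5-fold, with a median of 8.20-fold. These bounds come from the reads the clusters were chosen on, and the 5-read minimum sets their lower ends. They describe the set and are not a result against untreated cells.

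**Figure D1:**
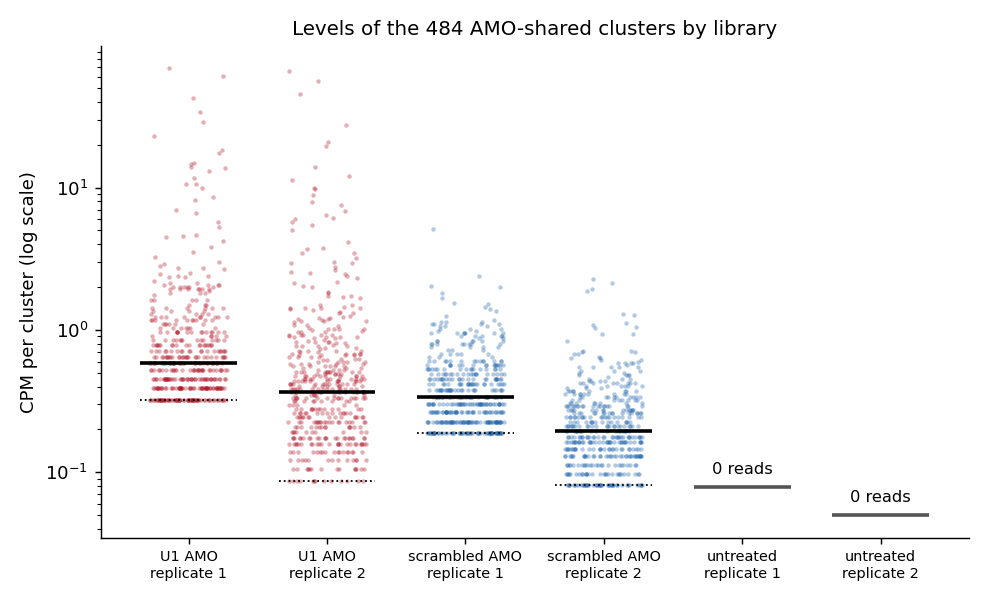
CPM on a log scale of each AMO-shared cluster (points) in the 4 AMO libraries, with the median as a thick bar and the level of the 5-read minimum as a dotted line. Untreated libraries had 0 reads at every cluster, and their grey bars mark the level of 3 counts, 0.0783 and 0.0498 CPM. The highest points lie with the U1 AMO, up to 68.8 CPM, while the highest scrambled AMO point is 5.11 CPM.

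The summed level of the set was uneven between the AMOs. The clusters together reached 817.3 and 610.5 CPM in the U1 AMO libraries and 212.4 and 123.7 CPM in the scrambled AMO libraries. The U1 AMO mean was 713.9 ± 146.2 CPM, against 168.1 ± 62.8 CPM for the scrambled AMO (SD, n = 2 each), a 4.25-fold difference without overlap of the groups. Much of it lay in few clusters. Without the 10 strongest, the mean was 411.4 CPM for the U1 AMO, against 165.7 CPM for the scrambled AMO, a 2.48-fold difference. At least 100 reads were found at 21 and 43 clusters in the U1 AMO libraries, against 1 and 4 in the scrambled AMO libraries. Even so, the set held only 0.0817% and 0.0611% of U1 AMO reads and 0.0212% and 0.0124% of scrambled AMO reads.

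The boundary of the set was not sharp. In 159 of the 484 clusters the lowest AMO library was exactly at 5 reads, and 333 further clusters had exactly 4 there and none in untreated cells. Just outside the other limit, 368 clusters had 1 untreated read in all and 377 had 2, with the AMO minimum met. The clusters just inside by AMO reads carried AATAAA or ATTAAA in 52.2% of cases and those just outside in 56.5%. With 1 untreated read the share was 62.0%. Of 3 other combinations counted under the same limits, each held fewer clusters. Only 1 cluster had no scrambled AMO read and at least 5 in each of the 4 other libraries, and 2 had no U1 AMO read. In the opposite direction, 66 clusters had at least 5 reads in each untreated library and none in any AMO library.

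Poly(A) signals at the AMO-shared clusters were less often the common ones. The hexamer deposited for the strongest position of each cluster was AATAAA at 186 clusters (38.4%) and ATTAAA at 66 (13.6%). Together they marked 252 clusters, 52.1% (95% Wilson interval 47.6 to 56.5%). In the 47891 other clusters that had at least 5 reads in each AMO library the share was 70.2%. These others were mostly stronger, and 19119 of them had a mean of at most 1 CPM over the AMO libraries, as did 427 of the AMO-shared clusters. Among clusters of at most 1 CPM, the common signals marked 49.4% of the AMO-shared clusters and 62.6% of the others. Over all 931675 clusters, most of them single reads or few, the share was 44.7%. Every position in the files has 1 of 36 hexamers, so sites without any could not enter.

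The hexamers below are the common signals and the A-rich ones without T, other than AAAAAA, found at 10 or more AMO-shared clusters. They are written 5′ to 3′ as the files give them, and capitals mark the whole hexamer.
Common signal: AATAAA
Common variant: ATTAAA
A-rich without T: AAGAAA
A-rich without T: AAAGAA
A-rich without T: AAAAAC
A-rich without T: AAAAAG

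The A-rich hexamers without T held larger shares of the AMO-shared clusters than of the others. AAGAAA was found at 31 AMO-shared clusters (6.40%), against 2.10% of the other clusters with the same AMO minimum. AAAGAA was found at 18 (3.72%), against 0.246% of the others. AAAAAC marked 11 (2.27%, against 0.165%) and AAAAAG marked 10 (2.07%, against 0.146%). All 8 hexamers that lack T, other than AAAAAA, together marked 89 AMO-shared clusters (18.4%), 4.01% of the others, 5.33% of the others of at most 1 CPM and 11.2% of all clusters. Runs of A did not follow the other hexamers without T. AAAAAA and TAAAAA marked 22 AMO-shared clusters (4.55%), against 5.68% of the others. Their share was 9.09% in the others of at most 1 CPM and 12.1% over all clusters. The variant TATAAA was found at 10 clusters (2.07%), against 3.79% of the others. These are counts of clusters, which are not replicates, and no test was made of them.

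The share of missing clusters in each untreated library depended on the hexamer. Among clusters with at least 10 reads in each of the 5 other libraries, untreated replicate 1 had no read at 725 of 32249 (2.25%) and untreated replicate 2 at 340 of 31339 (1.08%). For clusters with AAAAAA or TAAAAA the share was 37.2% in replicate 1 and 1.70% in replicate 2. For the other hexamers without T it was 2.82% and 3.51%, and for AATAAA or ATTAAA 0.489% and 0.930%. U1 AMO replicate 1, the shallowest library, lacked 277 of 35292 (0.785%), and the 3 other AMO libraries lacked none. In U1 AMO replicate 1 the share was 2.34% for AAAAAA or TAAAAA, 1.82% for the other hexamers without T and 0.649% for the common signals. The untreated libraries thus differed sharply for AAAAAA and TAAAAA. Both lacked the other hexamers without T more often than the common signals, as did U1 AMO replicate 1, so that order was not particular to untreated cells. The part of these absences in the set was not tested. Requiring absence from replicate 1 alone gave 2115 clusters, of which 29.3% carried AATAAA or ATTAAA. Requiring absence from replicate 2 alone gave 3399 clusters, of which 62.0% did. Untreated replicate 2 also had the fewest distinct positions, 497402, against 739367 in untreated replicate 1.

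Each position also carries a deposited whole number from 0 to 10, which the sources used here do not explain. At the strongest position it was 8 to 10 in 143 AMO-shared clusters, 29.5% (Wilson interval 25.7 to 33.8%). The share was 17.5% in the others, 21.5% in the others of at most 1 CPM and 26.3% over all clusters. The value was 10 in 53 AMO-shared clusters (10.95%), against 3.87% of the others. High values went with uncommon signals: 114 AMO-shared clusters (23.6%) had neither AATAAA nor ATTAAA and a value of 8 to 10, a combination found in 5.39% of the others. Among clusters with a common signal, 29 of 252 had such a value. The medians did not show the difference, at 5 in AMO-shared clusters and 5 in the others.

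**Figure D2:**
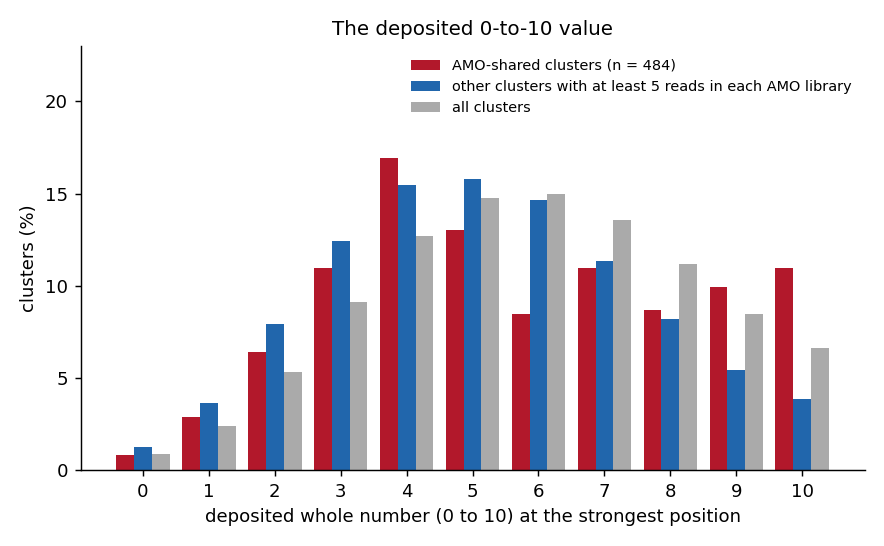
Share of clusters (%, vertical axis) at each deposited whole number from 0 to 10 (horizontal axis), for the AMO-shared clusters, for the other clusters with at least 5 reads in each AMO library, and for all clusters. The AMO-shared clusters have a second rise at the top, with 10.95% at 10 against 3.87% of the others.

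In shape the clusters were compact. Their median width was 12.5 nt (quartiles 7 and 22), against 21 nt in the others, 16 nt in the others of at most 1 CPM and 1 nt over all clusters. The median cluster held 7 distinct positions, against 13 in the others. A single position made up 22 AMO-shared clusters (4.55%), against 0.672% of the others. Width and positions were counted over all 6 libraries pooled. By the rule the AMO-shared clusters hold no untreated positions, while the others can gain them, so these differences are not free of the choice. The hexamer lay a median of 21 nt from the strongest position in both sets. It lay 15 to 30 nt away in 71.3% of AMO-shared clusters, against 82.4% of the others and 76.2% of the others of at most 1 CPM. The clusters were divided evenly over the strands, with 248 on plus. None lay on chromosome Y, 13 lay on X (2.69%, against 3.64% of the others), and the largest number on any chromosome was 42 on chromosome 11.

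The cut fell at the same place with either AMO about as often as between replicates. The strongest position was identical at 299 clusters (61.8%) between U1 AMO and scrambled AMO of replicate 1, and at 336 (69.4%) of replicate 2. Between replicates it was identical at 329 clusters (68.0%) for the U1 AMO and 305 (63.0%) for the scrambled AMO. In the others of at most 1 CPM these shares were 59.1% and 70.6% between AMOs, and 61.1% and 64.4% between replicates.

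The widest clusters were named next. The first, chr2:13504275-13504363 on the plus strand, spanned 89 nt with 8 positions. It had 18 and 42 reads with the U1 AMO, against 25 and 23 with the scrambled AMO and none untreated. Its hexamer was AATAGA at 37 nt and its deposited value was 10. The next, chr8:87831497-87831583 on the plus strand, spanned 87 nt with 6 positions and had 10 and 7 reads with the U1 AMO, against 10 and 6 with the scrambled AMO and none untreated. Both lay close to a stronger downstream cluster, at 152 and 331 nt.

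AMO-shared clusters were often followed by a stronger site, at some distance. Stronger means a higher mean CPM over the 4 AMO libraries, on the same strand within 50 kb, measured between strongest positions. Such a cluster lay downstream of 330 (68.2%), against 51.9% of the others and 64.8% of the others of at most 1 CPM. It lay upstream of 278 (57.4%), against 47.7% and 61.2%. Both sides had one at 225 (46.5%), and neither side at 101 (20.9%, against 31.5% and 19.7%). The level of a cluster itself sets how many neighbours can be stronger. The 427 AMO-shared clusters of at most 1 CPM had one downstream in 70.0% of cases and upstream in 60.7%, against 64.8% and 61.2% of the others of that level. A stronger cluster upstream alone was found at 10.8% of these 427, against 15.6% of those others. The distances differed as well. The nearest stronger cluster downstream lay at a median of 4664 nt, against 3102.5 nt in the others and 3398 nt in the others of at most 1 CPM. Upstream the medians were 7176.5 nt, against 3265 and 3570 nt. The 427 AMO-shared clusters of at most 1 CPM had medians of 3958 nt downstream and 6837 nt upstream.

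Close neighbours were correspondingly scarce. A stronger cluster lay within 1 kb of 109 AMO-shared clusters (22.5%), against 27.5% of the others and 32.4% of those of at most 1 CPM. Of the 427 AMO-shared clusters of at most 1 CPM, 25.1% had one. Within 100 nt there was one at 21 (4.34%, and 4.68% of the 427), against 5.32% and 7.06%. A downstream cluster at least 10 times stronger was present at 250 (51.7%, and 53.6% of the 427), against 29.0% and 43.5%. An upstream one was present at 31.6% (32.8% of the 427), against 23.2% and 35.1%. On the opposite strand within 5 kb, a stronger cluster on the upstream side was found at 37 AMO-shared clusters (7.64%, against 5.10% and 7.98%), and on the downstream side at 35 (7.23%, against 10.3% and 11.8%). For the 427 these shares were 7.96% upstream and 8.20% downstream.

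**Figure D3:**
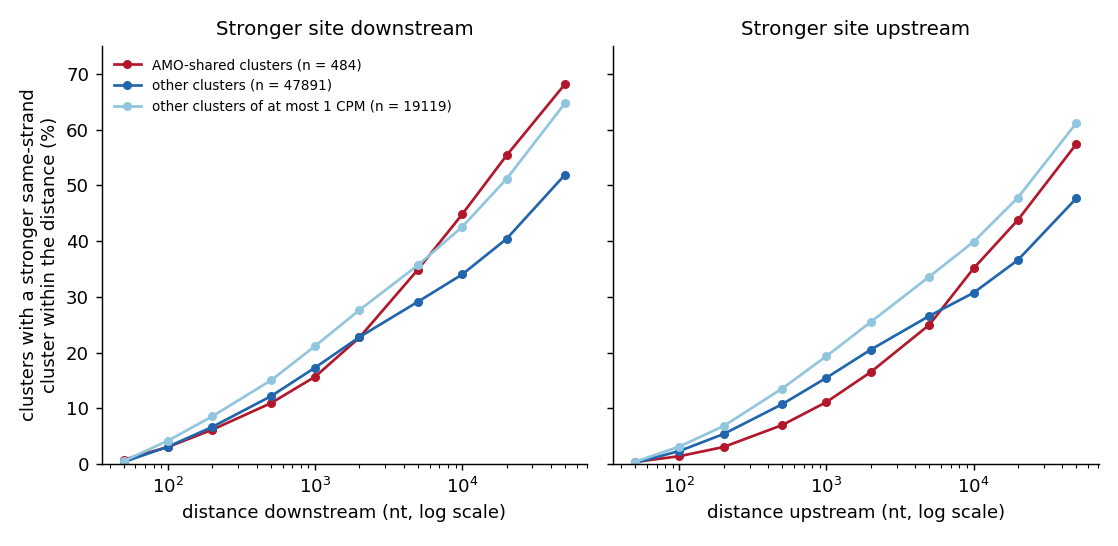
Share of clusters (%, vertical axis) with a stronger same-strand cluster within a given distance (nt, log scale), downstream on the left and upstream on the right. AMO-shared clusters run below the others of at most 1 CPM at short distances, with 11.2% against 19.4% within 1 kb upstream, and reach 68.2% downstream at 50 kb.

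Untreated reads were found in the surroundings of nearly all of them. The nearest same-strand cluster with any untreated read lay at a median of 1377.5 nt, against 313 nt for the others and 497 nt for the others of at most 1 CPM. It lay within 1 kb of 215 AMO-shared clusters (44.4%, against 69.5% and 61.2%), within 5 kb of 365 (75.4%, against 89.3% and 85.1%), and within 50 kb of all except 2. The absence of untreated reads at the cluster itself was part of the rule, so these distances and shares are not free of the choice. The clusters themselves were seldom grouped. Another AMO-shared cluster lay within 50 kb on the same strand at 32 (6.61%), never more than 1, and 9 pairs lay within 5 kb of each other.

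One of these pairs lay on the plus strand of chromosome 13. At chr13:23859890-23859899 there were 65 and 199 reads with the U1 AMO, against 7 and 14 with the scrambled AMO and none untreated. Upstream of it, chr13:23858656-23858666 had 37 and 66 reads with the U1 AMO, against 5 and 8 with the scrambled AMO and none untreated. Both carry AATAAA, at 19 and 18 nt, and both had more U1 AMO than scrambled AMO reads in each run. A second pair, on the plus strand of chromosome 14, lay closer together. At chr14:70482350-70482368 there were 43 and 37 reads with the U1 AMO, against 22 and 18 with the scrambled AMO and none untreated. Its neighbour chr14:70482417-70482422 had 8 and 29 reads with the U1 AMO, against 5 and 14 with the scrambled AMO and none untreated. These had AGTAAA and TATAAA, and both were higher with the U1 AMO in each run. All 32 clusters with a neighbour tied at 1, so these pairs are examples. Not all of the 32 were higher with the U1 AMO in each run.

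U1 AMO against scrambled AMO was not the contrast the clusters were chosen on, but it was not free of the choice. The minimum of 5 reads kept out sites silent with 1 of the AMOs, and in run 1 it admitted 0.324 CPM with the U1 AMO against 0.189 CPM with the scrambled AMO, which favours ratios above 1. In run 2 these limits were 0.0874 and 0.0810 CPM. The clusters called the others met the same minimum. The backgrounds over all clusters of a fit, given below, did not require it. Most AMO-shared clusters were higher with the U1 AMO. The median log2 ratio of CPM, U1 AMO over scrambled AMO, was 0.78 in the run of replicate 1 (1.71-fold, quartiles 0.26 and 1.36) and 0.76 in the run of replicate 2 (1.69-fold, quartiles 0.11 and 1.53). In run 1 this median is the ratio given by equal read counts in both libraries, since their depths differ by the same factor, and it was 0.64 with a minimum of 10 reads. The others had medians of -0.00 and -0.01. At most 1 CPM, the medians were 0.61 and 0.64 for AMO-shared clusters and 0.19 and 0.11 for the others.

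The U1 AMO library was higher in both runs at 333 clusters (68.8%), against 31.7% of the others. The background was 35% over the 80119 clusters of the 6-library fit. The U1 AMO library was lower in both runs at 28 (5.79%), against 33.3% of the others and 29.7% in the background. The runs differed in direction at 123. Both U1 AMO libraries lay above both scrambled AMO libraries at 205 clusters (42.4%), against 15.4% of the others and 21.6% in the background. They lay below them at 5 (1.03%), against 15.3% and 13.8%. The U1 AMO level was at least 2-fold higher in both runs at 115 clusters (23.8%), against 4.91% of the others. It was at least 2-fold lower in both at none, against 0.127%. The contrasts in direction and overlap were smaller among clusters of at most 1 CPM. There, 65.8% of AMO-shared clusters were higher in both runs, against 38.4% of the others, and 6.56% were lower, against 20.2%. U1 AMO libraries lay above without overlap at 37.9%, against 19.1%. At least 2-fold higher in both runs were 17.6%, against 5.199%. Over the 484 clusters the ratios of the runs correlated with Pearson's r = 0.80 and Spearman's rho = 0.47, a description of clusters that share libraries.

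Few of these differences passed the test across all clusters. In the 6-library quasi-likelihood fit of edgeR, 474 of the 484 were tested, and 16 rose with the U1 AMO at an adjusted p under 0.05, while none fell. Of the others tested, 0.291% were called higher and 0% lower. The background was 0.565% higher and 0% lower over 80119 clusters. This fit takes its spread from all 6 libraries, and the rule held both untreated counts of every AMO-shared cluster at 0. The others had no such limit, so the comparison of shares is not free of the choice. The same holds for the other fits that include untreated libraries. At an unadjusted p under 0.05 there were 68 higher, against 8.99% in the background, and 0 lower, and DESeq2 called 36 higher, against 3.83%, and 0 lower, against 0.00127%. Among the 4 AMO libraries, with the replicate number (their run) as a term, 450 were tested and 91 rose. That was 20.2%, against 5.71% of the others tested and a background of 13%. None fell, against 2.71% of the others and 2.05% in the background. That fit leaves 1 residual degree of freedom among the libraries and leans on a spread shared across clusters. The untreated libraries came from runs without AMO libraries, so with all 6 libraries the replicate number is not the run. In the 6-library fit with the same term no cluster was called, with 60 higher at an unadjusted p under 0.05, against 7.02%, and leaving out scrambled AMO replicate 2 left 0 calls among AMO-shared clusters and 0 over all clusters (51 AMO-shared clusters were higher at an unadjusted p under 0.05). The count was 6 (1.24%) without U1 AMO replicate 2, against 0.114% of all clusters tested, and 4 (0.826%) without scrambled AMO replicate 1, against 0.0712%. Without untreated replicate 1 it was 33 (6.82%), against 2.51%, and without untreated replicate 2 it was 35 (7.23%), against 3.41%. Among the others of at most 1 CPM, the fit with run called 3.24% higher, and among AMO-shared clusters of at most 1 CPM 12.5%.

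**Figure D4:**
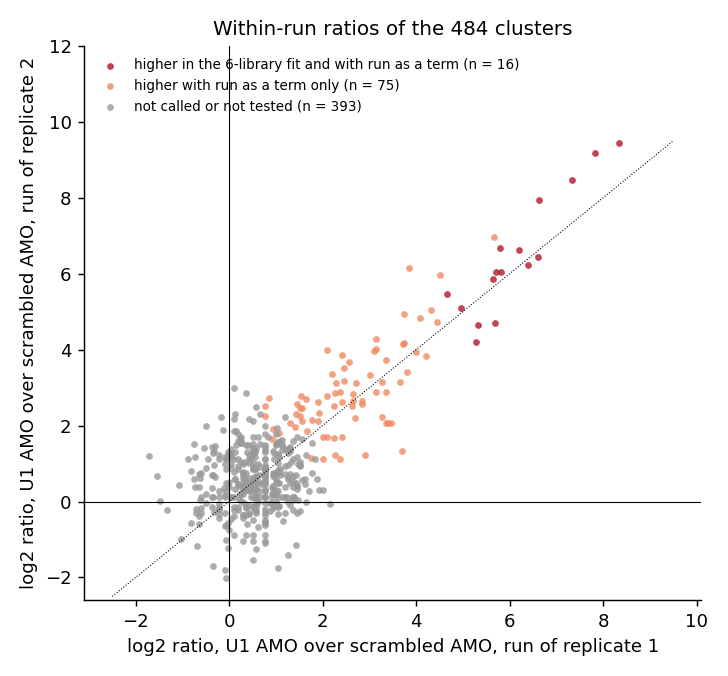
Log2 ratio of U1 AMO over scrambled AMO in the run of replicate 1 (horizontal axis) and of replicate 2 (vertical axis) for the 484 clusters, coloured by the edgeR calls; the dotted line marks equal ratios. Most clusters sit around the medians of 0.78 and 0.76, and the 16 called in the 6-library fit extend beyond 4 on both axes.

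The 16 clusters called in the 6-library fit were a strong group with the U1 AMO and near the read minimum with the scrambled AMO. They had 127 to 1061 reads (median 228) in U1 AMO replicate 1 and 347 to 3760 (median 608) in replicate 2. The scrambled AMO libraries had 5 to 10 reads (median 7) and 5 to 30 reads (median 9.5). In each run, scrambled AMO reads were at most 6.82 and 5.89 per 100 U1 AMO reads, with medians of 3.06 in the shared lane of replicate 1 and 1.52 in the separate lanes of replicate 2. Whether scrambled AMO reads at such clusters came from reads assigned to the wrong library was not tested. Of the 16, 13 had AATAAA or ATTAAA and 2 had a deposited value of 8 to 10.

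The strongest of all, chr14:52700835-52700854 on the minus strand, was chosen after its values were seen. It had 1061 and 3760 reads with the U1 AMO, against 8 and 7 with the scrambled AMO and none untreated. The U1 AMO level was 67.3 ± 2.2 CPM and the scrambled AMO level 0.208 ± 0.134 CPM (SD, n = 2 each). Its hexamer was AATAAA at 20 nt, its deposited value 0, and a stronger cluster followed 6720 nt downstream.

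Among clusters with at least 10 reads in each AMO library and the same direction in both runs, 5 were named for the highest ratio. At chr18:12295417-12295441 on the plus strand there were 226 and 509 reads with the U1 AMO, against 10 and 30 with the scrambled AMO and none untreated. It rose with the U1 AMO by 4.68 ± 0.53 on the log2 scale (SE) at an edgeR adjusted p of 0.0379. Of the 5, only this cluster was past the threshold in that fit, and it was not past it when U1 AMO replicate 2 was left out (adjusted p of 0.0693), or scrambled AMO replicate 1 (0.119) or replicate 2 (0.166). Over its 12 alternatives the adjusted p ran from 2.36e-11 to 0.166.

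The next in rank, chr9:66794994-66795016 on the plus strand, had 179 and 344 reads with the U1 AMO, against 14 and 14 with the scrambled AMO and none untreated. The U1 AMO over scrambled AMO ratio was 21.9 in run 1 (95% exact counting interval 12.7 to 40.9) and 26.5 in run 2 (15.6 to 49.0). Its edgeR log2 fold change was 4.54 ± 0.66 (SE), with an adjusted p of 0.0545 over 6 libraries, 1.13e-08 with run as a term and 0.240 at most over its alternatives. The cluster has AATAAA at 29 nt and a stronger cluster 2308 nt downstream.

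On chromosome 9, chr9:103266769-103266792 on the minus strand had 102 and 314 reads with the U1 AMO, against 13 and 11 with the scrambled AMO and none untreated. Its log2 fold change was 4.21 ± 0.67 (SE), with edgeR adjusted p-values of 0.0668 over 6 libraries, 1.47e-07 with run as a term and 0.287 at most over its alternatives. It has ATTAAA at 25 nt, and a stronger cluster 11340 nt downstream. On chromosome 7, chr7:71533331-71533360 on the minus strand had 72 and 216 reads with the U1 AMO, against 14 and 12 with the scrambled AMO and none untreated. Its log2 fold change was 3.57 ± 0.69 (SE), with edgeR adjusted p-values of 0.0998 over 6 libraries, 1.52e-06 with run as a term and, at most, 0.474 over its alternatives. It has AATAAA at 25 nt and a stronger cluster 11875 nt downstream. The groups did not overlap in either.

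The lowest of the 5, chr1:75075290-75075307 on the plus strand, had 70 and 159 reads with the U1 AMO, against 22 and 19 with the scrambled AMO and none untreated. Its ratio was 5.45 in run 1 (interval 3.34 to 9.25) and 9.03 in run 2 (5.59 to 15.4). The edgeR adjusted p was 0.183 over 6 libraries, 1.30e-05 with run as a term and 0.935 at most over its alternatives. It has ATTAAA at 26 nt and no stronger cluster on its strand within 50 kb.

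At the other end only 4 clusters met the same rule. At chr6:29107064-29107065 on the minus strand there were 16 and 12 reads with the U1 AMO, against 28 and 30 with the scrambled AMO and none untreated. Its ratio was 0.979 in run 1 (interval 0.495 to 1.87) and 0.432 in run 2 (0.201 to 0.868). At chr5:130295553-130295558 on the plus strand there were 12 and 28 reads with the U1 AMO, against 31 and 34 with the scrambled AMO and none untreated. Its ratios of 0.663 and 0.888 had counting intervals that include 1. The same held at chr13:33186243-33186253 on the plus strand, with 19 and 19 reads with the U1 AMO, against 41 and 25 with the scrambled AMO and none untreated. It also held at chr14:104905304-104905338 on the minus strand, with 19 and 26 reads with the U1 AMO, against 38 and 32 with the scrambled AMO and none untreated. The hexamer was AATACA at the first and CATTAA at the second, and none of the 4 passed the edgeR test in either fit.

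The 8 clusters with the highest level in their lowest AMO library included both higher and lower U1 AMO levels, and none passed the 6-library edgeR test. The first, chr10:84518008-84518015 on the plus strand, had 29 and 125 reads with the U1 AMO, against 53 and 120 with the scrambled AMO and none untreated. These are 1.88 and 2.18 CPM (U1 AMO), against 2.01 and 1.94 CPM (scrambled AMO), so the groups overlapped, at a level at least 64.5-fold above the untreated floor in the scrambled AMO libraries. It has AATAAA at 25 nt and a deposited value of 2, and the nearest cluster with untreated reads lay 2696 nt away. The second, chr11:77107562-77107584 on the plus strand, had 42 and 172 reads with the U1 AMO, against 54 and 80 with the scrambled AMO and none untreated. Its levels were 2.72 and 3.01 CPM (U1 AMO), against 2.04 and 1.30 CPM (scrambled AMO). It has AACAAA at 21 nt and the highest deposited value, 10.

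The third, chr18:80422588-80422592 on the plus strand, had 32 and 168 reads with the U1 AMO, against 29 and 140 with the scrambled AMO and none untreated. At chr5:28186729-28186730 on the minus strand, only 2 positions with ACTAAA at 17 nt, there were 30 and 97 reads with the U1 AMO, against 33 and 64 with the scrambled AMO and none untreated. At chr7:130611509-130611521 on the plus strand, with AATAAA at 20 nt, there were 17 and 66 reads with the U1 AMO, against 27 and 131 with the scrambled AMO and none untreated. The last of these changed direction between runs, with a ratio of 1.08 in run 1 (interval 0.552 to 2.05) and 0.544 in run 2 (0.398 to 0.736).

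At chr8:107458547-107458577 on the plus strand there were 32 and 81 reads with the U1 AMO, against 27 and 52 with the scrambled AMO and none untreated. It has AATAAA at 23 nt and stood alone, with no stronger cluster within 50 kb and the nearest untreated read on its strand 33845 nt away. At chr9:95390508-95390516 on the minus strand, with AAAGAA at 15 nt, there were 15 and 68 reads with the U1 AMO, against 24 and 43 with the scrambled AMO and none untreated. The eighth, chr15:76346634-76346652 on the minus strand, had 50 and 170 reads with the U1 AMO, against 18 and 58 with the scrambled AMO and none untreated. It had the highest ratio of these 8, 4.76 in run 1 (interval 2.73 to 8.67) and 3.16 in run 2 (2.33 to 4.34), with an edgeR adjusted p of 0.250 over 6 libraries, 0.000398 with run as a term and 1 at most over its alternatives.

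Of the clusters with no stronger site within 50 kb on their strand, the 3 strongest were named. The first, chrX:126285932-126285964 on the plus strand, had 357 and 694 reads with the U1 AMO, against 12 and 6 with the scrambled AMO and none untreated. Its log2 fold change was 6.08 ± 0.83 (SE), with an edgeR adjusted p of 0.0513 over 6 libraries and 7.13e-10 with run as a term, and a range of 2.61e-15 to 0.147 over its alternatives. The second, chr1:191556722-191556746 on the plus strand, had 285 and 799 reads with the U1 AMO, against 5 and 10 with the scrambled AMO and none untreated. It rose with the U1 AMO by 6.47 ± 0.51 on the log2 scale (SE) at an edgeR adjusted p of 0.0237, which was 0.0553 without scrambled AMO replicate 1 and 0.111 without replicate 2, and ran from 3.86e-20 to 0.112 over its alternatives. These have AATAAA and ATTAAA, each at 19 nt, and deposited values of 2.

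The third differed in kind. At chr16:60949760-60949762 on the plus strand, 2 positions held 211 and 96 reads with the U1 AMO, against 135 and 21 with the scrambled AMO and none untreated. The hexamer was AAAAAC at 11 nt. Its levels followed the run more than the treatment, at 13.7 and 1.68 CPM (U1 AMO), against 5.11 and 0.340 CPM (scrambled AMO), replicate 1 first in each. The edgeR log2 fold change was 1.45 ± 1.33 (SE), with an adjusted p of 1 over 6 libraries and 0.000129 with run as a term, the lowest of its alternatives; without U1 AMO replicate 1 the direction turned, to -0.42.

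The U1 AMO ratio is given next by signal, with no test of the differences between signals. In the 252 clusters with AATAAA or ATTAAA the median log2 ratio was 0.91 in run 1 and 0.82 in run 2. Of these, 66 of 233 tested (28.3%) rose in the fit with run. That fit called higher 13% of all clusters tested, 5.71% of the others and 3.24% of the others of at most 1 CPM. In the 232 with neither signal the medians were 0.51 and 0.71, and 25 of 217 tested (11.5%) rose. That lies near the share of all clusters and above those of the others. The 114 that had neither common signal and a deposited value of 8 to 10 had medians of 0.35 and 0.69. Of these, 4 of 106 tested (3.77%) rose, near the share of the others of at most 1 CPM. The shares of the others were not split by signal. The order of the medians was not the same in both runs for every hexamer. The 22 clusters with AAAAAA or TAAAAA had medians of 0.34 in run 1 and 1.11 in run 2, and the 89 with other hexamers without T 0.43 and 0.77. Read-weighted, the common signals made up 72.8% and 78.2% of the set's U1 AMO reads, against 44.5% and 53.4% of its scrambled AMO reads.

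Sorted by ratio, the clusters differed from end to end. The 60 that were at least 4-fold higher with the U1 AMO in both runs had a common signal at 48 of 60 and a deposited value of 8 to 10 at 3. They were 18 nt wide in the median, and the 40 with a stronger downstream cluster had it at a median of 12261.5 nt. In the 273 that were higher in both runs by less, the common signal share was 54.2% and the high-value share 29.7%. In the 123 of mixed direction they were 39.8% and 37.4%, and in the 28 lower in both runs 25% and 46.4%. The ratio was not part of the rule that chose the 484, but these classes were cut from it, so the shares are a description.

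The ratio was broadly lower with more untreated reads, and its highest medians were at 1 untreated read, not at 0. Among clusters of at most 1 CPM with the same AMO minimum, the median log2 ratio of U1 AMO over scrambled AMO was 0.61 and 0.64 in the runs at 0 untreated reads (427 clusters) and 0.78 and 0.69 at 1 read (317 clusters). It was 0.51 and 0.35 at 5 to 9 reads, 0.29 and 0.15 at 20 to 39, and -0.10 and -0.03 at 80 or more. A library's own level enters both the limit of 1 CPM and the ratio, and the quartiles overlapped widely between neighbouring classes. The median level over the AMO libraries was 0.372 CPM at 0 untreated reads and 0.700 CPM at 80 or more. Level and untreated reads were not separated here. The common signals marked 49.4% at 0 untreated reads, 60.6% at 1, 56.1% at 2 and 66.9% at 80 or more. In the classes from 3 to 79 reads the share was 60.4 to 64.0%, without a steady rise.

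**Figure D5:**
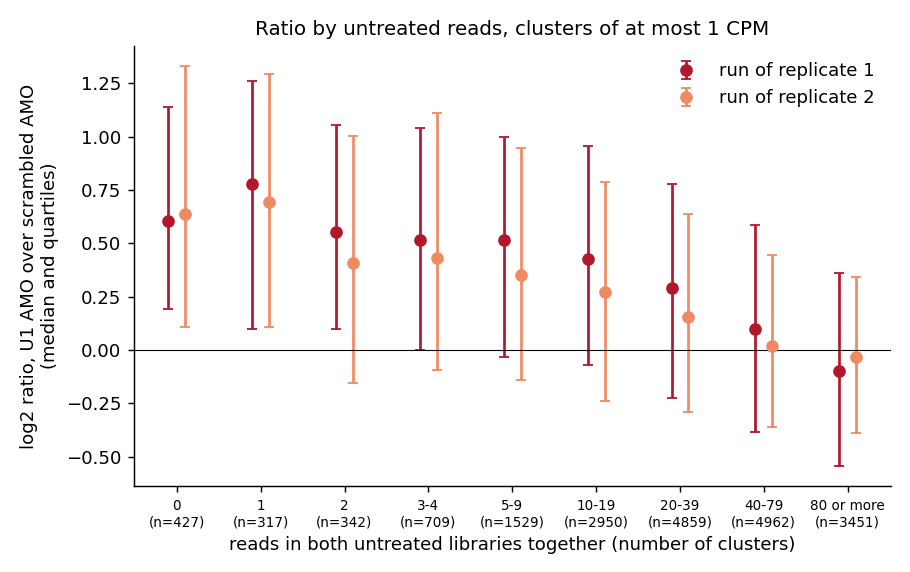
Log2 ratio of U1 AMO over scrambled AMO (median as a point, quartiles as bars) in each run, for clusters of at most 1 CPM with at least 5 reads in each AMO library, by the number of reads in both untreated libraries together. The medians are 0.61 and 0.64 at 0 reads, highest at 1 read, and -0.10 and -0.03 at 80 or more.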

How the data were processed

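The submitters' processing notes name cutadapt, Bowtie and build mm9; no version and no filter on positions is given in the sources used. Per library, the deposited values are whole-number read counts per stranded position, not normalized, each with a hexamer, its distance and a 0 to 10 value. Positions outside chromosome M (2333467 distinct) were pooled, joined into clusters and summed. CPM divides by library totals. The AMO-shared clusters, lists and naming rule were chosen with earlier results of these data known.

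Named were the 8 clusters highest in their lowest AMO library, the 5 highest and 5 lowest ratios (same direction in both runs, at least 10 reads per AMO library; only 4 low ones qualified), the 2 widest, 2 with another AMO-shared cluster within 50 kb, and the 3 strongest without a stronger neighbour. Positions are 1-based.

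U1 AMO was tested against scrambled AMO with edgeR 4.0.16 (R 4.3.3; quasi-likelihood, TMM, filterByExpr, Benjamini-Hochberg over all clusters), checked on simulated counts; DESeq2 1.42.0 was an alternative. With 2 libraries a group, exact permutation cannot go below p = 0.333. Read names show that same-numbered AMO libraries share a run, and their deviations correlated at r = 0.80 across 30218 clusters, so a fit with run as a replicate block is printed beside the main one. Other values used Python 3.11.15, pandas 2.3.3, numpy 2.4.6, scipy 1.17.1 and matplotlib 3.10.9.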

Additional observations from a re-analysis of the deposited data

How the results depend on the processing

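The number of AMO-shared clusters depends on the limits: it was 1543 with a minimum of 3 reads, 99 with a minimum of 10, 886 with up to 1 read in each untreated library, 242 with every library thinned to the shallowest, and 270 from positions with a deposited value of 5 or less. Leaving out 1 library at a time gave 523 to 3399, the highest without untreated replicate 1.

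Calls higher with the U1 AMO, 16 in the 6-library fit, were 30 without a filter on low counts (6.20%, against 0.311% of all clusters), 0 with 6 libraries and the replicate block, 91 with the 4 AMO libraries and the replicate block (20.2%, against 13%), 33 with those 4 and no block (7.33%, against 3.46%), 36 with DESeq2 (7.78%, against 3.83%), and 0 to 35 leaving out 1 library at a time. None of these fits called an AMO-shared cluster lower. The fold change at chr16:60949760-60949762 reversed to -0.42 without U1 AMO replicate 1 and reached 4.25 without scrambled AMO replicate 1. Of the other alternatives run on the fold changes of 9 named clusters, 33 brought one past the threshold, 7 took one below it and 67 changed neither call nor direction. The cause was not tested.

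The median log2 ratio of run 1 was 0.64 with a minimum of 10 reads and 0.72 with TMM library sizes. That of run 2 was 0.69 and 0.79 with minimums of 3 and 10 reads, and 0.73 and 0.77 joining at 10 and 50 nt. Weighted by reads, the common signals made up 69.8% and values of 8 to 10 made up 16.3%. The median width was 10 and 15 nt joining at 10 and 50 nt.

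A stronger downstream cluster was found at 96.5% with strength taken from the untreated libraries, 44.8% within 10 kb, 51.7% when it had to be 10 times stronger, and 62.6% with a minimum of 10 reads. The same settings gave 97.3%, 35.1%, 31.6% and 47.5% upstream, and 0.413%, 43.8%, 36.4% and 26.3% with none. The median downstream distance was 3078, 1957 and 8897 nt under the first 3. The summed U1 AMO mean was 411.4 CPM without the 10 strongest and 134.8 CPM with a minimum of 10 reads (62.9 CPM with the scrambled AMO), and leaving out 1 library gave 610.5 to 817.3 CPM with the U1 AMO and 123.7 to 212.4 CPM with the scrambled AMO. Depth limits the weakest clusters, where 5 reads are 0.324 CPM in the shallowest library.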
